A study of Mus musculus with 2 samples.

Results

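The 9 glutamate transporter genes described here were taken by their platform symbols from the 19503 genes that the array table names. They are Slc1a1, Slc1a2, Slc1a3, Slc1a4, Slc1a5 and Slc1a6 of the Slc1a family, and the vesicular transporter genes Slc17a6, Slc17a7 and Slc17a8. The rule used their symbols, though it was set with earlier results of these data known. The series holds 2 arrays of pooled cerebella from Tg(Pcp2-L10a-Egfp) mice at postnatal day 7. Both groups carry the transgene, whose Pcp2 promoter places a green fluorescent tag on ribosomal protein L10a in Purkinje cells. The TRAP sample is the RNA recovered with the tagged ribosomes on antibody beads, and the unbound sample is the RNA that stayed in solution. There is 1 array for each fraction, so no difference below has a replicate, an error or a p-value. How many animals were pooled, and whether both fractions came from the same pool, is not given in the sources used here.

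Glutamate is cleared from synapses by carriers of the Slc1a family, which use the sodium gradient to move it into glia and neurons. Slc1a3 (GLAST) and Slc1a2 (GLT-1) are the glial carriers, and in the cerebellum GLAST is concentrated on Bergmann glia. Slc1a1 (EAAC1) is the widespread neuronal carrier, and Slc1a6 encodes the carrier of Purkinje cell dendrites and spines. Slc1a4 and Slc1a5 belong to the same family but exchange neutral amino acids. The 3 vesicular genes fill synaptic vesicles with glutamate: Slc17a7 in mature parallel fibres, Slc17a6 in climbing fibres, nuclear neurons and young parallel fibres, and Slc17a8 in scattered neurons that often use another transmitter too.

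Of the 9 genes, only Slc1a6 exceeded 2-fold in favour of TRAP, while 6 exceeded 2-fold in favour of unbound. The 6 were Slc17a6, Slc1a3, Slc17a7, Slc1a2, Slc1a1 and Slc1a4. Among all 19503 genes, 4.58% lay at or past 2-fold on the TRAP side and 11.0% on the unbound side. Values are the deposited log2 values, and each difference is TRAP minus unbound. The median difference of the 9 genes was -1.31, and that of all genes was 0.10.

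A floor of 7.08, the median of all probe set values on both arrays, served to separate low values, because the table has no detection calls. Of the 9 genes, 3 (Slc1a3, Slc1a6 and Slc17a7) lay above it on both arrays. Another 4 (Slc1a1, Slc1a2, Slc1a4 and Slc17a6) passed only through the unbound array, so they had to differ in that direction, and the size of their folds is uncertain. Slc1a5 and Slc17a8 lay below the floor on both arrays. Over the 10524 genes above the floor on at least 1 array, 8.11% lay at or past 2-fold on the TRAP side and 18.6% on the unbound side. Over the 8757 genes above it on both arrays, the shares were 7.94% and 13.0%. These shares moved with the scaling: with each array's median subtracted, 16.4% of genes over the floor reached 2-fold on the TRAP side and 11.6% on the unbound side. The median difference of the genes that pass the floor as deposited was -0.13, and 0.20 with the array medians subtracted.

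**Figure D1:**
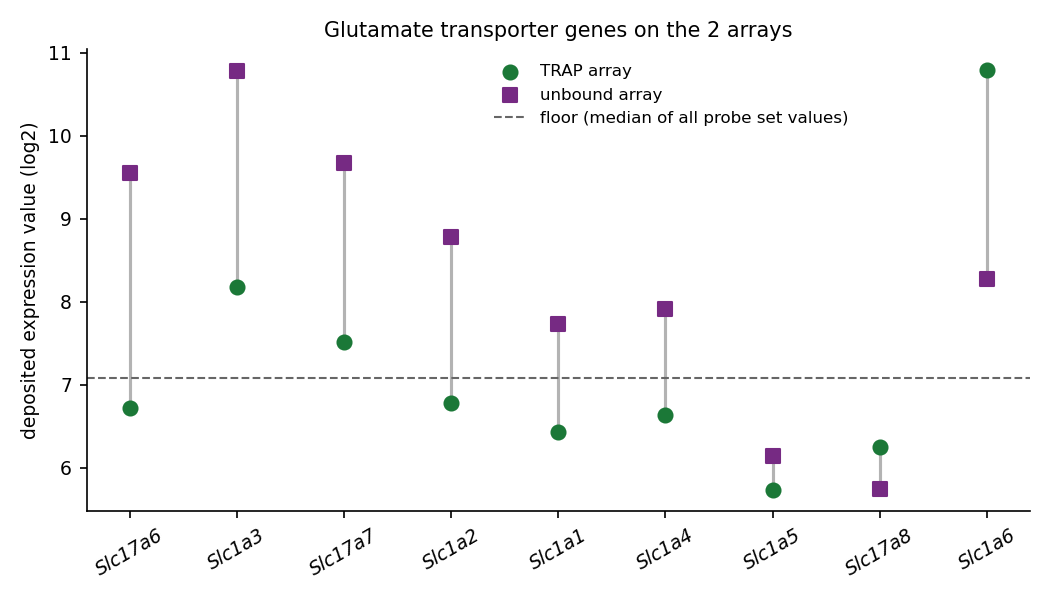
Deposited log2 value (vertical axis) of each glutamate transporter gene on the TRAP array (circles) and the unbound array (squares), 1 array each, with a grey line joining both values of a gene and a dashed line at the floor of 7.08. Genes are ordered by their difference: Slc17a6, at the left, differs by -2.83 and Slc1a6, at the right, by 2.51.

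The tag could be checked on Pcp2, the gene whose promoter drives it. It read 12.98 in TRAP and 11.65 in unbound. All 10 measured genes of the Purkinje cell list had the higher value in TRAP. Of these, 6 reached 2-fold as deposited, 9 with the array medians subtracted and 5 with quantile normalization or a loess trend removed. Among all genes, 4.58% reached 2-fold on the TRAP side as deposited. The Purkinje list's median difference was 1.19. As deposited, no gene on a list of another cell type reached 2-fold on the TRAP side; Hopx, a homeodomain gene on the glial list, did with the array medians subtracted (1.27) and with quantile normalization (1.003).

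Slc1a6, the transporter gene of Purkinje cell dendrites, read 10.79 in TRAP against 8.28 in unbound, and was 5.70-fold higher in TRAP. Both values lie above the floor, by 3.71 and 1.20. Its difference of 2.51 ranked at place 20 from the TRAP end among the 10524 genes above the floor. Of the 10 Purkinje markers, 9 had a smaller difference than Slc1a6 and 1 a larger one. That one was Gng13, a G protein subunit gene, at 3.17. The smallest belonged to Pcp4, a calmodulin regulator gene (0.49), and Car8, which encodes a carbonic anhydrase-related protein (0.71). The TRAP to unbound ratio of Slc1a6 was 2.26 times that of Pcp2 and 2.76 times that of Calb1, the gene of the calcium buffer calbindin. With quantile normalization these were 2.56 and 3.24, and with a loess trend removed 2.60 and 3.23. In TRAP, Pcp2 read 12.98 and Calb1 13.32, near the highest value of 13.65 on either array. Whether so high a level limits their ratios was not tested. Of the 92 genes on the pathway and marker lists that have a value, the nearest to Slc1a6 in difference were Skor2 (2.36) and Ppp1r17 (1.98). Both are on the Purkinje list, and the gap to Ppp1r17 was 0.53. Outside that list the highest difference was that of the vesicular GABA transporter gene Slc32a1 (1.15). The lists therefore held no other genes that could be as near, and the match does not bear on cell type. Likeness here is the gap between differences over 2 arrays.

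The promoters of Slc1a6 and of Slc1a3, the family members with the highest and the lowest difference, are shown because these genes of 1 family stood at opposite ends. The sequences are the 250 bases before the RefSeq start in GRCm38.p6, read 5′ to 3′ on the gene's strand, at chr10:78780246-78780495 (plus strand) for Slc1a6 and chr15:8710808-8711057 (minus strand) for Slc1a3. Capitals mark GGGCGG on either strand, the GC box known as a site of Sp1 family factors.

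Slc1a6: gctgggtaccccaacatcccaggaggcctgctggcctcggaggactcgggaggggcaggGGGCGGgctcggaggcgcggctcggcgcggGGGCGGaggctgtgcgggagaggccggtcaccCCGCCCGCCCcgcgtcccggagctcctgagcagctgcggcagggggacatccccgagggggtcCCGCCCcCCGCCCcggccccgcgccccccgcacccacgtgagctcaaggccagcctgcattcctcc

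Slc1a3: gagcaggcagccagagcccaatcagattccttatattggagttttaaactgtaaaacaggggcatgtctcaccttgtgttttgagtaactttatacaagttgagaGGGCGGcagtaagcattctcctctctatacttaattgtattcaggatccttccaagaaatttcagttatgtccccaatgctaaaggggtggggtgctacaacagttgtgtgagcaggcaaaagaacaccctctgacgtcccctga

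The Slc1a6 window is 78.8% G and C, against 44.8% for Slc1a3 and a median of 52.4% over 32851 RefSeq promoter windows of the same length. It holds 6 matches to GGGCGG, overlapping ones counted apart, and 26 CG pairs, while the Slc1a3 window holds 1 match and 2 CG pairs. Promoter entries were found for 8 of the 9 genes, 10 windows in all. The window of Slc1a1 is 70.4% G and C with 27 CG pairs and that of Slc1a2 44.8% with 1, and both genes were higher in unbound. GGGCGG is present in 6 of the 10 windows and in 32.7% of all windows. AGGTCA, the hexamer that the Purkinje cell factor RORα can bind, is in none of the 10 and in 14.0% of all. TATAAA is in 1 of the 10 (Slc1a3) and 12.4% of all, and CAGCTG, an E-box, in 1 (Slc1a6) and 13.0% of all. Both strands were searched, and no match to one motif overlapped a match to another. These letters are a description of the sequence, and the arrays do not measure factor binding.

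The glial carriers were higher in unbound. Slc1a3, the Bergmann glia carrier gene, read 8.18 in TRAP against 10.79 in unbound. Both values lie above the floor, and they differ 6.09-fold. Its TRAP value was 1.10 above the floor. Slc1a2, the gene of the astrocyte carrier GLT-1, read 6.78 and 8.78, a 4.00-fold difference, with the TRAP value 0.30 below the floor. Among the 10524 genes above the floor, 1.06% had a lower difference than Slc1a3.

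Markers of these glia were mostly lower in TRAP too. Of the 12 measured, which mark astrocytes and Bergmann glia, 11 had the higher value in unbound, and 9 reached 2-fold there. Among all genes, 11.0% reached 2-fold on the unbound side. Above the floor on at least 1 array lay 11 of the 12, and on both arrays 8. The rest of the 11, Aqp4 among them, passed it only through the unbound array. Those genes had to differ in that direction, and the size of their folds is uncertain. The list's median level was 7.60 in TRAP and 9.76 in unbound. Gfap, which encodes the astrocyte intermediate filament protein, differed by -3.92 and the water channel gene Aqp4 by -3.53, while Gjb6, a connexin gene, differed by -0.25 and Hopx by 0.93. Gjb6 lay below the floor on both arrays and its difference was 0.08 with the array medians subtracted. Of the 12 markers, 3 had a lower difference than Slc1a3, and Slc1a2 lay in the middle with 6 on either side. A value of such bulk RNA does not show which cells the RNA came from. The part that glial RNA plays in the Slc1a3 value on the TRAP array was not tested.

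Between the fractions, Slc1a6 and Slc1a3 were 5.12 apart on the log2 scale, so that the TRAP to unbound ratio of Slc1a6 was 34.7 times that of Slc1a3. A comparison of ratios does not change when an array's median is subtracted. With quantile normalization and with a loess trend removed, the ratio against Slc1a3 was 35.0 and 34.6.

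The remaining Slc1a genes had values below the floor or less than 1 above it. Slc1a1, the neuronal carrier gene, read 6.42 in TRAP against 7.73 in unbound, which is 2.48-fold. Slc1a4, whose protein (ASCT1) exchanges neutral amino acids such as serine, read 6.63 and 7.92, which is 2.44-fold. Both TRAP values lie below the floor and both unbound values above it. With the array medians subtracted neither reached 2-fold, at -0.98 for Slc1a1 and -0.95 for Slc1a4, and with quantile normalization Slc1a4 differed by -0.97. The nearest list genes in difference were the same for both, Pax2 of immature interneurons (-1.27) and the myelin gene Mog (-1.26). Slc1a5, which encodes the glutamine and neutral amino acid exchanger ASCT2, read 5.73 and 6.15, both below the floor. Slc1a7, the family member best known from the retina, was not among the 9 but has a probe set. It read 5.94 in TRAP and 5.44 in unbound, also below the floor on both arrays.

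The vesicular transporter genes divided into a pair well above the floor in unbound and 1 below it on both arrays. Slc17a6, the vesicular transporter gene of climbing fibres, nuclear neurons and young parallel fibres, read 6.73 in TRAP and 9.55 in unbound. The values differ 7.11-fold, but the TRAP value lies 0.35 below the floor, so the size of this fold is uncertain. Slc17a7, the gene of mature parallel fibre terminals, read 7.51 and 9.67, a 4.46-fold difference with both values above the floor. Slc17a8 read 6.25 and 5.75. Its difference of 0.50 is between a pair of values below the floor, so no direction is read from it.

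The cell bodies of climbing fibres lie outside the cerebellum, so the cerebellar sources that the lists cover are granule cells, unipolar brush cells and nuclear neurons. All 8 granule neuron markers reached 2-fold on the unbound side, against 11.0% of all genes. Their median difference was -2.10, with median levels of 9.88 in TRAP and 11.81 in unbound. Cbln3, a cerebellin gene, and Gabra6, a GABA-A receptor subunit gene, led this list at -3.05 and -2.78, and Rbfox3 and Zic1 ended it at -1.19 and -1.07. With the array medians subtracted neither of the last 2 reached 2-fold (-0.86 and -0.74). Slc17a7 lay in the middle of the 8, with 4 on either side, and Slc17a6 had a lower difference than 7 of them. Of 5 measured markers of unipolar brush cells and excitatory nuclear neurons, all were higher in unbound as deposited. Meis2 (-2.58) and Eomes (-2.14) reached 2-fold, while Tbr1 (-0.82), Lhx9 (-0.34) and Lhx2 (-0.20) lay below the floor on both arrays. Lhx2 was positive with the array medians subtracted and with quantile normalization. Slc17a6 had a lower difference than all 5. The nearest list genes were Gabra6 (-2.78) and Etv1 (-2.69) for Slc17a6, and Pdgfra (-2.16) and Eomes (-2.14) for Slc17a7. Pdgfra marks oligodendrocyte precursors, so nearness in difference over 2 arrays joined genes of unlike cell types.

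**Figure D2:**
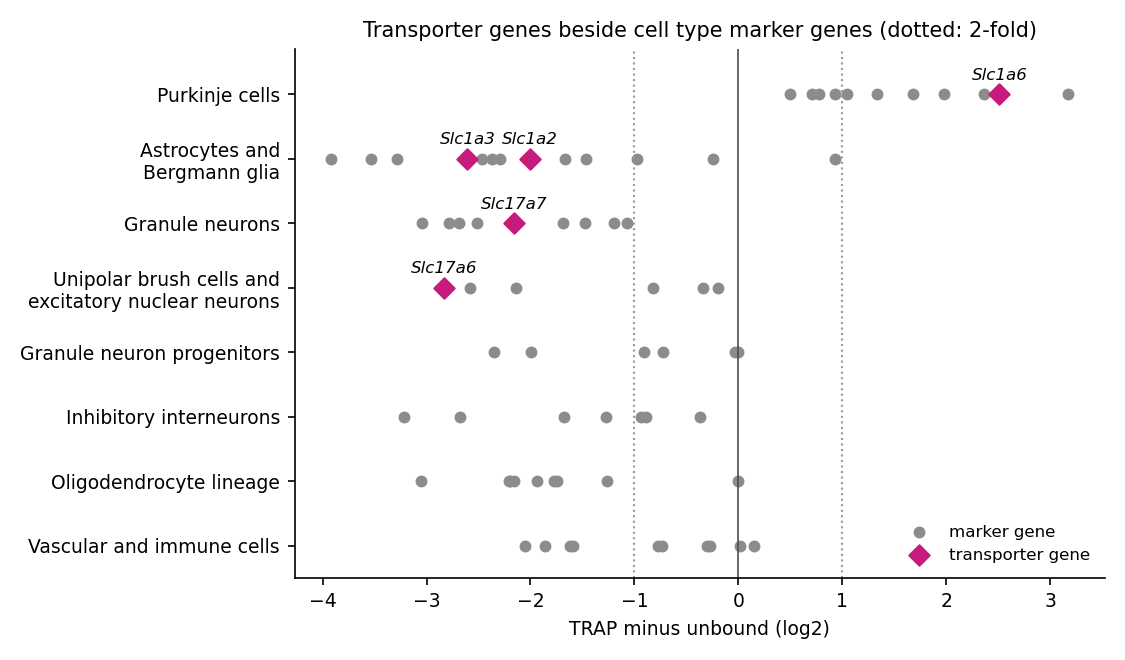
TRAP minus unbound difference (horizontal axis, log2; 1 array per fraction) of cell type marker genes, 1 grey point per gene and 1 row per list, with 5 transporter genes as diamonds in the row of a cell type known to use them. Slc1a6 lies among the Purkinje cell genes at 2.51, Slc1a3 and Slc1a2 among the glial genes, and Slc17a7 and Slc17a6 at -2.16 and -2.83. Slc17a6 is drawn only in the row of unipolar brush cells and excitatory nuclear neurons, though young parallel fibres use it too. Dotted lines mark 2-fold.

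Other neuronal and glial lists were also lower in TRAP. Among granule neuron progenitor markers, 2 of 6 reached 2-fold on the unbound side, Ccnd1 (-2.35) and Atoh1 (-1.99), while Mycn and Sfrp1 differed by -0.03 and -0.01. Both were positive with the array medians subtracted, and Mycn also with quantile normalization. The counts were 4 of 7 for inhibitory interneurons, 8 of 9 for the oligodendrocyte lineage and 4 of 10 for vascular and immune cells. Among all genes, 11.0% reached 2-fold on that side. In the same order, 2, 4 and 3 genes of these lists lay above the floor on both arrays. The interneuron list ran from Tfap2b (-3.22) and Kit (-2.68) to Gjd2 (-0.89) and Sorcs3 (-0.37). The oligodendrocyte list ran from Enpp6 (-3.05) and Sox10 (-2.21) to Mog (-1.26) and Cspg4 (-0.0040, and positive with the array medians subtracted or quantile normalization), and the vascular and immune list from Acta2 (-2.05) and Rgs5 (-1.86) to Col1a1 (0.01) and Pecam1 (0.15). Kit, Gjd2, Enpp6, Sox10, Mog and Acta2 passed the floor only through the unbound array, so the size of their folds is uncertain. Sorcs3, Cspg4 and Pecam1 lay below it on both arrays. Slc1a3 was near genes of several of these lists in difference, with Meis2 (-2.58) and Kit (-2.68) the nearest, and Slc1a2 was nearest to Atoh1 (-1.99) and Slc38a3 (-2.02).

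Genes that supply or surround these transporters were held in 1 list of 32, of which 25 have a value here. Of the 25, 6 reached 2-fold on the unbound side and 1 on the TRAP side, and the median difference was -0.18. Among all genes, 11.0% reached 2-fold on the unbound side and 4.58% on the TRAP side, so 1 of 25 is near the share of all genes. Over the 15 above the floor the median was -0.90, a filter that removed mostly genes of low level with small differences. Of the 15, 11 lie above the floor on both arrays. Slc38a3, Slc7a11, Slc17a5 and Kcnj10 passed only through the unbound array, so they had to differ in that direction and pull this median down.

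The glutamate and glutamine cycle split by enzyme. Glul, encoding the glutamine synthetase that glia use to turn captured glutamate into glutamine, read 9.18 in TRAP against 11.57 in unbound, which is 5.24-fold. The aspartate aminotransferase genes Got1 and Got2, whose enzymes interconvert glutamate and aspartate, read 12.48 and 12.52 in TRAP against 11.60 and 11.98 in unbound. Their differences of 0.88 and 0.55 did not reach 2-fold, though that of Got1 did with the array medians subtracted (1.21). Glud1, the glutamate dehydrogenase gene, differed by -0.47.

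All 6 genes of glutamine and cystine-glutamate transport had the higher value in unbound as deposited, and 4 reached 2-fold. Slc38a3, a glutamine exporter gene of astrocytes, differed by -2.02 (6.62 against 8.64). Slc7a11, the cystine-glutamate exchanger gene, differed by -1.69 with a TRAP value below the floor, and its partner Slc3a2, shared with other amino acid transporters, by -0.32. The difference of Slc3a2 was 0.01 with the array medians subtracted. The neuronal glutamine carrier genes Slc38a1 and Slc38a2 differed by -1.24 and -1.09 and fell short of 2-fold under that scaling. Slc38a5, another glutamine carrier gene, differed by -0.92 with no value above the floor.

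Among genes of proteins that bind the plasma membrane carriers, Arhgef11, whose protein binds the Slc1a6 carrier, read 10.09 in TRAP and 9.49 in unbound, short of 2-fold at 0.59. Ajuba, whose protein binds GLT-1, lay below the floor on both arrays, at 6.05 and 6.83. Of the genes for the ion gradients that uptake runs on, the sodium pump subunit gene Atp1b1 differed by 0.25, Atp1b2 by -0.91 and the glial potassium channel gene Kcnj10 by -0.90, its TRAP value below the floor.

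The other Slc17 genes gave little signal. Slc17a5, the lysosomal sialic acid transporter gene, read 6.46 in TRAP, below the floor, and 8.13 in unbound, which is 3.18-fold. Slc17a1, Slc17a2, Slc17a3, Slc17a4 and Slc17a9 were below the floor on both arrays, with differences from 0.02 to 0.57; that of Slc17a4 was negative with quantile normalization or a loess trend removed. Of the vesicular transporter genes for other transmitters, Slc32a1, which loads GABA and glycine, read 9.69 in TRAP and 8.54 in unbound. It was 2.23-fold higher in TRAP, whereas Slc17a6 and Slc17a7 were 7.11-fold and 4.46-fold higher in unbound. Slc18a1, Slc18a2 and Slc18a3, for monoamines and acetylcholine, were below the floor on both arrays.

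The arrays were also scaled in 3 other ways (array medians subtracted, quantile normalization and loess trend removed). The 7 transporter genes above the floor on at least 1 array kept their direction under all 3. Subtracting array medians shifts every gene by the same amount, which is smaller than any of these 7 differences, so it could not reverse them. Slc1a1, Slc1a2, Slc1a4 and Slc17a6 passed the floor only through the unbound array, so the filter had already set their direction as deposited. No direction is read from Slc1a5 and Slc17a8, which lay below the floor on both arrays. Slc1a6 ranged from 2.51 to 2.84, Slc1a3 from -2.61 to -2.28, Slc17a6 from -2.83 to -2.50, Slc17a7 from -2.16 to -1.83 and Slc1a2 from -2.00 to -1.67. The 2-fold mark was crossed by Slc1a1 and Slc1a4.

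**Figure D3:**
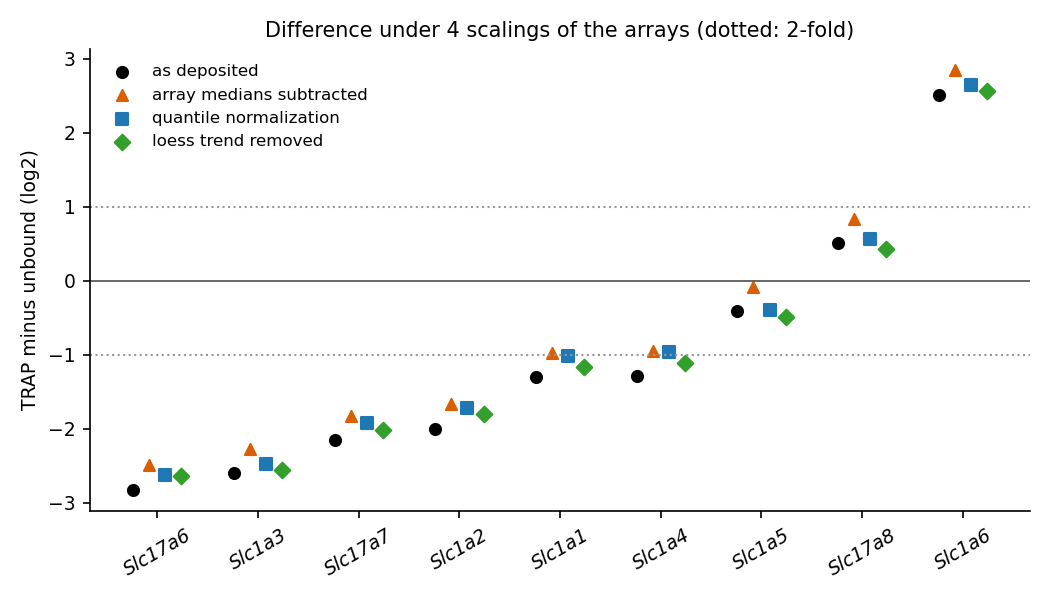
TRAP minus unbound difference (vertical axis, log2) of each glutamate transporter gene as deposited and under 3 other scalings of the 2 arrays, with dotted lines at 2-fold. Slc1a6 stays above 2.5 and Slc17a6, Slc1a3, Slc17a7 and Slc1a2 below -1.6 under all 4, while Slc1a1 and Slc1a4 lie near -1.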

How the data were processed

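RNA of the TRAP and the unbound fraction was measured on 1 Affymetrix mouse array each, and the authors deposited 1 log2 value per probe set and array. They used Affymetrix Power Tools, as the submitters' processing notes say (per the labels). Version, background correction, summary, normalization and log base are not stated there, and the values were taken as log2 from their range (highest 13.65). Of 22097 probe sets, 20999 name 1 gene in the platform annotation and were averaged per gene; each of the 9 transporter genes has 1 probe set, matched by Entrez identifier to RefSeq. Differences were computed with Python 3.11.15 and pandas 2.3.3, without further scaling. No test was possible with 1 array per fraction, so a difference of at least 2-fold served as the rule; the number of arrays limits the precision. The code was tested on simulated data. Promoters are RefSeq's. Members and lists were chosen with earlier results of these data known. Named were all transporter genes and Slc1a7, all pathway genes with a value, Pcp2, up to 4 markers per list (2 from each end; all above the floor where 5 or fewer are) and the 2 list genes nearest to each transporter; Calb1, a Purkinje marker, was singled out after its value was seen. Rpl10a, the tagged ribosomal protein's gene, read 12.67 in TRAP and 12.13 in unbound. List genes without a value were not analysed here. Other scalings, floors, thresholds and probe set rules were tried.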

Additional observations from a re-analysis of the deposited data

How the results depend on the processing

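No transporter gene above the floor on at least 1 array changed direction under another scaling. Subtracting array medians could not have changed one, because its shift is smaller than each of their differences. For Slc1a1, Slc1a2, Slc1a4 and Slc17a6 the floor, passed only through the unbound array, had set the direction as deposited. Taking the brightest probe set per gene could not change a transporter gene, because each has 1 probe set. With array medians subtracted, Slc1a1 (-0.98) and Slc1a4 (-0.95) were short of 2-fold, and with quantile normalization Slc1a4 (-0.97); the number at least 2-fold higher in unbound went from 6 to 4 and 5. It was 3 with a floor at the 75th percentile, which removes genes of low level. Slc1a6 was the 1 transporter gene past the fold threshold on the TRAP side under all settings tried. The share of genes above the floor at least 2-fold higher in TRAP and in unbound moved to 16.4% and 11.6% with array medians subtracted; over all genes, with no floor, it was 4.58% and 11.0%. By construction the share above the floor was 18.8% and 30.9% at 1.5-fold, and 0.741% and 4.34% at 4-fold. With no floor, the median difference of unipolar brush cell and nuclear neuron markers was -0.82 and that of vascular and immune markers -0.75, both short of 2-fold because low genes entered. No paired analysis was possible because each fraction has 1 array and no test was run. There are no detection calls, so values near or below the floor of 7.08 cannot be told from background, which limits the folds of Slc1a1, Slc1a2, Slc1a4 and Slc17a6.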
